A study of Mus musculus with 18 samples.

Results

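The genes described here are 10 targets of Wnt signalling: the feedback inhibitors Axin2, Rnf43, Znrf3, Nkd1 and Notum, the transcription factors Tcf7 and Sp5, and the cell surface proteins Cd44, Ephb2 and Ephb3. They were taken by symbol from a deposited table of 24116 mouse genes, in which all 10 were present. RNA was sequenced from intestinal organoids, miniature epithelia that grow from crypt cells, at day 0, 1, 2, 3, 4 and 5 of culture, with 3 libraries at each day. All 18 libraries came from C57BL/6 wild-type mice aged 8 weeks, and each pooled 30 wells. The series names 3 organoid lines. By the sample titles, replicates 1 and 3 are mice 1 and 3 at every day. Replicate 2 is mouse 2 at days 0, 3, 4 and 5 but mouse 1 at days 1 and 2, so the 3 libraries of those days come from 2 mice and p-values there may understate the spread between animals.

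EGF, Noggin and R-spondin, which strengthens Wnt signalling, were in the medium at every stage and so in all groups. Between day 0 and day 1 it also held 3 µM CHIR99021, an inhibitor of the kinase GSK3, with 20% medium conditioned by Wnt3a-producing L-cells and 10 µM of the ROCK inhibitor Y-27632. Between day 1 and day 3 CHIR99021 was left out, and between day 3 and day 5 Wnt3a medium and Y-27632 were left out too. The labels do not say whether the day 0 material had already been in the first medium. No culture kept 1 medium throughout, so a change of medium and the passage of time cannot be told apart, nor can the loss of Wnt3a medium and that of Y-27632.

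Canonical Wnt signalling works through beta-catenin. Without a ligand, a complex that holds the scaffold AXIN and the kinase GSK3 marks beta-catenin for destruction. With a ligand, or when GSK3 is inhibited, beta-catenin accumulates and drives TCF/LEF factors on target genes. Many targets feed back on the pathway. AXIN2 rebuilds the destruction complex, RNF43 and ZNRF3 remove Frizzled receptors from the membrane unless R-spondin holds them back, NKD1 binds Dishevelled, and NOTUM removes a lipid that Wnt ligands need. In the intestine the pathway keeps the crypt in a stem and progenitor state, and the receptors EPHB2 and EPHB3 keep crypt cells apart from cells of the villus.

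The promoter windows of Sp5 and Axin2 are shown because Sp5 alone held the TCF/LEF core searched for, while Axin2 is widely used as a readout of the pathway. The windows run from 250 bases before to 50 bases after a start site in RefSeq (GRCm38.p6), and 8 of the 10 genes had a window (Rnf43 and Tcf7 had 2 each). The core searched for was CTTTGAT, or ATCAAAG on the other strand. Among the 8 genes it was found in 1, Sp5, at position -104 from the start site. In the table as a whole it was found in 1225 of 32851 windows of this length (3.73%). The shorter string CTTTG, on either strand, occurred 5 times in the Sp5 window, 1 of them inside the core. At least 5 copies stood in 0.286% of all windows and at least 1 in 53.9%. The Axin2 window, with 70% G and C, held neither string. A match is a string of letters and not a binding site, and its absence says nothing of sites outside the window. Capitals mark the core.
Sp5, chr2:70474673-70474972, plus strand: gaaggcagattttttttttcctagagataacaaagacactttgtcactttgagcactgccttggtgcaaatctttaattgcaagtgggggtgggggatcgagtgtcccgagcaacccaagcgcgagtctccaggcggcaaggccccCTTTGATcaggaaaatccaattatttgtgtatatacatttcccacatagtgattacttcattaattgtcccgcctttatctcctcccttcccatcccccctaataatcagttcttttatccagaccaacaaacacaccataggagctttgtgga
Axin2, chr11:108920099-108920398, plus strand: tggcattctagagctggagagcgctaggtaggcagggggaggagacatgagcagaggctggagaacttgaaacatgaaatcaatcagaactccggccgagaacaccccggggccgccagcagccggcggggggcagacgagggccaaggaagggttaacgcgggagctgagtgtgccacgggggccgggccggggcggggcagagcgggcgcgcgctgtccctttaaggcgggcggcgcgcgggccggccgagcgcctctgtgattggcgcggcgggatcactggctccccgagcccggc

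In the mouse genome (GRCm38.p6) 5 of the 10 genes lie on chromosome 11 (Axin2, Rnf43, Znrf3, Tcf7 and Notum) and 2 on chromosome 2 (Sp5 and Cd44), with Nkd1 on 8, Ephb2 on 4 and Ephb3 on 16. Axin2 spans chr11:108917828-108950783, Rnf43 chr11:87663087-87735539 and Tcf7 chr11:52246527-52283383. Ephb2 spans chr4:136647536-136836326 and Ephb3 chr16:21204620-21223309, and Cd44 spans chr2:102811141-102901669.

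Levels are given as RPKM, read counts scaled by gene length and library size, and so can be compared between genes. The step of 1 read gave implied depths of 43.0 to 53.9 Mreads (megareads). Epithelial markers were high in every library (sums over 7 genes of 1950 to 6950 RPKM). Of 7 mesenchyme markers, 6 were under 1 RPKM in all 18 libraries and Dcn and Lum were at 0, and all 4 endothelial markers were under 1 RPKM. Of 7 immune markers 5 were under 1 RPKM in all libraries, while Cd68 reached 3.47 and Itgam 1.47 RPKM. Cd68 fell at day 5 against day 0 (-1.32, limma adjusted p = 0.00838). Some libraries stood apart from their day. Only 8 of 18 correlated best with other libraries of their own day, and the largest shortfalls were those of day 4 replicate 3, day 3 replicate 1, day 4 replicate 1 and day 2 replicate 2. Replicate 1 of every day was made without DNase treatment, unlike the other 12 libraries. The libraries were bulk, so fewer cells of a type and less RNA per cell cannot be told apart.

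**Figure D1:**
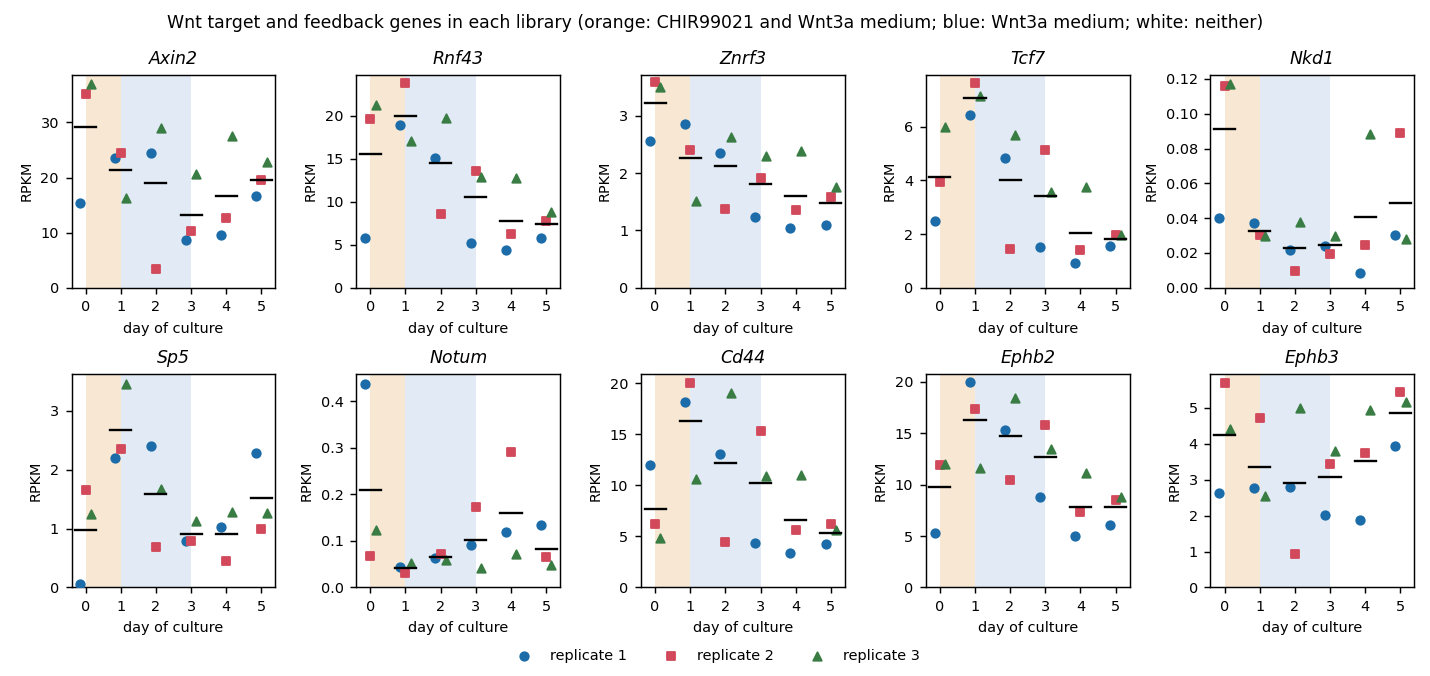
RPKM of each of the 10 genes (vertical axes, a separate scale for each gene) by day of culture (horizontal axes). Symbols are the 3 replicates, bars are the means, and shading marks the medium. Rnf43, Tcf7, Sp5, Cd44 and Ephb2 have their highest mean at day 1, whereas Axin2, Znrf3, Nkd1 and Notum have it at day 0 and Ephb3 at day 5.

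Axin2, the scaffold and feedback inhibitor, was at 15.5, 35.1 and 37.0 RPKM in replicates 1, 2 and 3 at day 0 and at 23.6, 24.4 and 16.3 RPKM at day 1. It was at 24.5, 3.44 and 29.0 RPKM at day 2 and 8.66, 10.4 and 20.6 RPKM at day 3, in Wnt3a medium. Without that medium it was at 9.61, 12.7 and 27.6 RPKM at day 4 and 16.6, 19.5 and 22.8 RPKM at day 5. Its highest value, in day 0 replicate 3, was 10.8 times its lowest, in day 2 replicate 2, and the ranges of all days that neighbour each other in the order of means overlapped. Only 24.0% of its sum of squares on the log2 scale lay between days, the lowest share among the 10 genes.

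Rnf43, a membrane ubiquitin ligase that clears Frizzled receptors, was at 5.83, 19.6 and 21.3 RPKM at day 0 and rather even at day 1, with 18.9, 23.8 and 17.1 RPKM. Values at days 2 and 3 were 15.1, 8.60 and 19.8 RPKM and 5.25, 13.6 and 12.9 RPKM. At days 4 and 5 they were 4.34, 6.31 and 12.8 RPKM and 5.76, 7.80 and 8.81 RPKM. All 3 libraries of day 5 lay below all 3 of day 1. Its relative Znrf3 was lower throughout, with 2.56, 3.59 and 3.50 RPKM at day 0, 2.86, 2.41 and 1.52 RPKM at day 1 and 2.35, 1.38 and 2.63 RPKM at day 2. It was at 1.23, 1.91 and 2.30 RPKM at day 3, 1.04, 1.36 and 2.38 RPKM at day 4 and 1.10, 1.58 and 1.76 RPKM at day 5. Its mean was highest at day 0 and lowest at day 5, and the libraries of those days did not overlap. For this and the other genes described here, the share of all tested genes with days separated in the same way was not computed.

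The other feedback inhibitors were barely detected. Notum, a secreted deacylase, ranged from 0.0320 to 0.438 RPKM, or 3 to 47 reads, and its highest value was in day 0 replicate 1. At day 1, under CHIR99021 and Wnt3a medium, it was at 0.0438, 0.0320 and 0.0522 RPKM. Nkd1 ranged from 0.00867 to 0.117 RPKM, or 2 to 25 reads. Its highest values were 0.116 and 0.117 RPKM in replicates 2 and 3 of day 0. Neither gene reached 1 RPKM in any library, so neither entered the tests, and 8 of the 10 genes did. Among the relatives of these inhibitors, Nkd2 did not pass 0.127 RPKM in any library, whereas Axin1, the constitutive scaffold, lay between 15.5 and 25.6 RPKM.

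Tcf7, which encodes the TCF factor TCF1, was at 2.48, 3.94 and 5.98 RPKM at day 0 and 6.43, 7.61 and 7.15 RPKM at day 1. It was at 4.84, 1.45 and 5.70 RPKM at day 2 and 1.51, 5.13 and 3.56 RPKM at day 3. At day 4 it was at 0.938, 1.41 and 3.74 RPKM and at day 5 at 1.57, 1.95 and 1.96 RPKM. Every day 1 library was above every library of days 0, 2, 3, 4 and 5, and 57.6% of its sum of squares lay between days, the highest share among the 10 genes. How many of all tested genes had 1 day set apart like this was not computed. Of the other TCF/LEF genes, Lef1 did not pass 0.0335 RPKM in any library, and Tcf7l2 lay between 1.87 and 4.98 RPKM.

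Sp5, a zinc finger factor that is a direct target of beta-catenin, was at 0.0565, 1.65 and 1.25 RPKM at day 0 and 2.19, 2.36 and 3.45 RPKM at day 1. It was at 2.41, 0.693 and 1.67 RPKM at day 2, 0.786, 0.785 and 1.14 RPKM at day 3 and 1.02, 0.442 and 1.28 RPKM at day 4. At day 5 it was at 2.28, 0.998 and 1.27 RPKM. The value of day 0 replicate 1 rested on 6 reads, the fewest of the 18 libraries, against 42 or more in the others. Its relative Sp8 was at 0 in all libraries of days 1, 2, 3, 4 and 5.

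Cd44, the hyaluronan receptor of crypt cells, was at 12, 6.25 and 4.85 RPKM at day 0 and 18.1, 20.0 and 10.7 RPKM at day 1. It was at 13.1, 4.49 and 19.0 RPKM at day 2 and 4.34, 15.3 and 10.9 RPKM at day 3. It was at 3.37, 5.58 and 10.97 RPKM at day 4 and 4.22, 6.22 and 5.61 RPKM at day 5. The day 1 and day 5 libraries did not overlap, and those of the days between spread over both.

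Ephb2, a receptor of ephrin-B ligands that is graded along the crypt, was at 5.29, 11.95 and 11.98 RPKM at day 0 and 20.0, 17.3 and 11.6 RPKM at day 1. It was at 15.3, 10.5 and 18.4 RPKM at day 2 and 8.81, 15.8 and 13.5 RPKM at day 3. It was at 5.01, 7.31 and 11.2 RPKM at day 4 and 6.05, 8.55 and 8.81 RPKM at day 5. All 3 libraries of day 5 lay below those of days 1 and 2. Against day 3 there was nearly a tie, with 8.805 RPKM in day 5 replicate 3 and 8.813 RPKM in day 3 replicate 1. Ephb3, the relative of Ephb2 at the crypt base, took another course. It was at 2.63, 5.69 and 4.40 RPKM at day 0, 2.76, 4.72 and 2.55 RPKM at day 1 and 2.80, 0.930 and 5.01 RPKM at day 2. It was at 2.03, 3.43 and 3.79 RPKM at day 3, 1.87, 3.73 and 4.95 RPKM at day 4 and 3.93, 5.45 and 5.17 RPKM at day 5. Its highest mean was that of day 5, although the ranges of neighbours in the order of means overlapped.

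Over the 6 days, none of the 8 tested genes passed the test for any difference among days when day was the only term (limma F test on log2(RPKM + 1), adjusted p under 0.05 over 11111 genes), while 25.3% of all tested genes did. At an unadjusted p under 0.05 the count was 3 of 8, and the lowest adjusted p was 0.0596 for Tcf7, followed by 0.082 for Ephb2. With the replicate number as a block Tcf7 passed (count 1), and with the mouse, as the titles give it, as a factor Tcf7, Rnf43 and Ephb2 passed (count 3). The comparisons below ask about the changes of medium. Each was fitted in the same model with all 18 libraries, and each is read against the share of all tested genes that passed.

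The first comparison, day 1 against day 0, covers the day in CHIR99021 and Wnt3a medium. Sp5 rose, and was the only 1 of the 8 tested genes to pass the test, against 18.6% of all genes. Its mean went from 0.984 ± 0.829 to 2.67 ± 0.684 RPKM (SD, n = 3 each), a log2 change of 0.97 ± 0.32 (SE, limma adjusted p = 0.0478). That value rested on day 0 replicate 1, without which it was 0.57 with an adjusted p of 0.202, and the call was lost without any of 13 of the 18 libraries. Among the DNase-treated libraries it was 0.66 (adjusted p = 0.137). The other estimates were 1.03 ± 0.50 for Cd44, 0.73 ± 0.33 for Ephb2, 0.71 ± 0.40 for Tcf7 and 0.50 ± 0.46 for Rnf43. Negative estimates were those of Axin2 (-0.35 ± 0.59), Znrf3 (-0.38 ± 0.23) and Ephb3 (-0.26 ± 0.37). The median of the 8 was 0.61, beside 0 for all genes. With the mouse as a factor Sp5 had an adjusted p of 0.0551 and Ephb2 passed in its place. At this step 3 of 5 stem cell markers fell and 1 rose (median -1.85), while 3 of 7 enterocyte markers (median 1.92) and 4 of 7 epithelial markers (median 0.80) rose, and their part in the change of Sp5 was not tested.

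Among the 64 tested genes of the 7 other Wnt and Eph lists, 15 passed at the same step (23.4%, beside 18.6% of all genes), 3 higher and 12 lower. Among 9 tested further targets of the crypt, Ccnd1, the G1 cyclin, rose by 2.42 (adjusted p = 0.018) and Ascl2, a stem cell transcription factor, by 1.73 (adjusted p = 0.0477) on the log2 scale. The stem cell receptor Lgr5, which stands in the lists of targets and of receptors, fell by 2.40 (adjusted p = 0.0316). Both values moved with day 0 replicate 1, in opposite ways. Without it the rise of Ascl2 was smaller and did not pass (1.08, adjusted p = 0.201). The fall of Lgr5 was larger without it (-3.64, adjusted p = 0.000101). Of 12 tested receptors and co-receptors 6 fell and none rose, among them Fzd1 (-1.07), Fzd5 (-1.05) and Fzd4 (-0.98). Of 16 tested genes listed with beta-catenin and its destruction complex 2 fell, Dvl2 (-1.06) and Tnks (-0.68). That list also holds the Dishevelled genes, such as Dvl2. Of 12 TCF partners only the co-repressor Tle3 fell (-1.48). Of 8 ephrins and other Eph receptors Efna1 (-1.57) and Ephb4 (-0.79) fell, and of 4 other Wnt inhibitors Kremen1 (-0.35) fell. Wnt3a transcript, of 4 tested genes for ligands and their secretion, rose by 1.60 (adjusted p = 0.0332). It was at 0.0215, 0 and 0 RPKM at day 0, 0.492, 6.18 and 1.63 RPKM at day 1, 0.125, 4.00 and 0.894 RPKM at day 2 and 0.0233, 0.637 and 0.465 RPKM at day 3. In the medium without Wnt3a it was at 0.0141, 0.0802 and 0.0478 RPKM at day 4 and did not pass 0.00845 RPKM at day 5. Its mean also went from 2.77 to 0.375 RPKM between days 1 and 3, when the medium held Wnt3a throughout, and the part of the medium in its level was not tested.

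The next step was the loss of CHIR99021. At day 2 against day 1 no gene of any kind passed (0% of 11111, with 263 at an unadjusted p under 0.05), and none of the 8 did, also at the unadjusted level. With days 2 and 3 together against day 1, 0.054% of all genes passed (6 genes, with 644 at an unadjusted p under 0.05) and none of the 8. All 8 estimates were negative, also after rescaling by the median of ratios and after quantile normalization, with a median of -0.64 beside -0.02 for all genes. They were largest for Tcf7 (-0.89 ± 0.35, adjusted p = 0.705), Sp5 (-0.74 ± 0.28, adjusted p = 0.68) and Rnf43 (-0.72 ± 0.40), all from limma, and those of Tcf7 and Sp5 had a p under 0.05 before adjustment. The 95% interval for Axin2 ran from -1.72 to 0.44 and that for Ephb2 from -0.84 to 0.37, so that a fall of a size such as that of Tcf7 was not detectable for Axin2 at this spread. All genes share the 3 libraries of day 1, so the common sign is 1 observation on those libraries and not 8.

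The loss of Wnt3a medium and Y-27632 came next. Day 4 against day 3 gave 0.036% of all genes (4 genes, with 541 at an unadjusted p under 0.05) and none of the 8, and the lowest unadjusted p among these was 0.0622, for Ephb2 (-0.66 ± 0.33). With days 4 and 5 against days 2 and 3, Ephb2 fell by 0.74 ± 0.23 on the log2 scale (limma adjusted p = 0.044) and was the only 1 of the 8 to pass, against 16% of all genes. Without day 4 replicate 1 the adjusted p was 0.124, and the call was lost without any of 11 of the 18 libraries and among the DNase-treated libraries (-0.63, adjusted p = 0.0945). The estimates of Cd44 (-0.71 ± 0.35), Tcf7 (-0.63 ± 0.29) and Rnf43 (-0.62 ± 0.32) did not pass, but those of Tcf7 and Rnf43 did with the mouse as a factor, which gave 3 calls with Ephb2. Those of Ephb3 (0.41 ± 0.26) and Axin2 (0.36 ± 0.41) were positive and did not pass either. The median of the 8 was -0.42, beside -0.13 for all genes. Rescaling by the median of ratios moved the median of all genes from -0.13 to -0.01 here, from -0.15 to -0.03 for day 5 against day 1 and from -0.17 to -0.01 for day 5 against day 0, and the medians of the 8 became -0.32, -0.64 and -0.25. It turned the sign of Sp5 here and of Axin2 for day 5 against day 1, neither of which had passed.

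Of the 64 tested genes of the other lists 7 passed at this step (10.9%, beside 16% of all genes). Sfrp5, a secreted inhibitor, rose by 0.81 (adjusted p = 0.0431) and Kremen2, a Dickkopf receptor, fell by 0.51 (adjusted p = 0.042), out of 4 tested inhibitors. The matrix protease Mmp7, which Paneth cells make, rose by 1.54 (adjusted p = 0.0228), as the only 1 of 9 further targets. Of 12 receptors Ryk fell (-0.46). None of 16 genes listed with beta-catenin and its destruction complex and none of 12 TCF partners passed. Of 8 ephrins and Eph receptors Efna1 (1.16) and Epha1 (0.69) rose and Epha2 fell (-1.63).

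**Figure D2:**
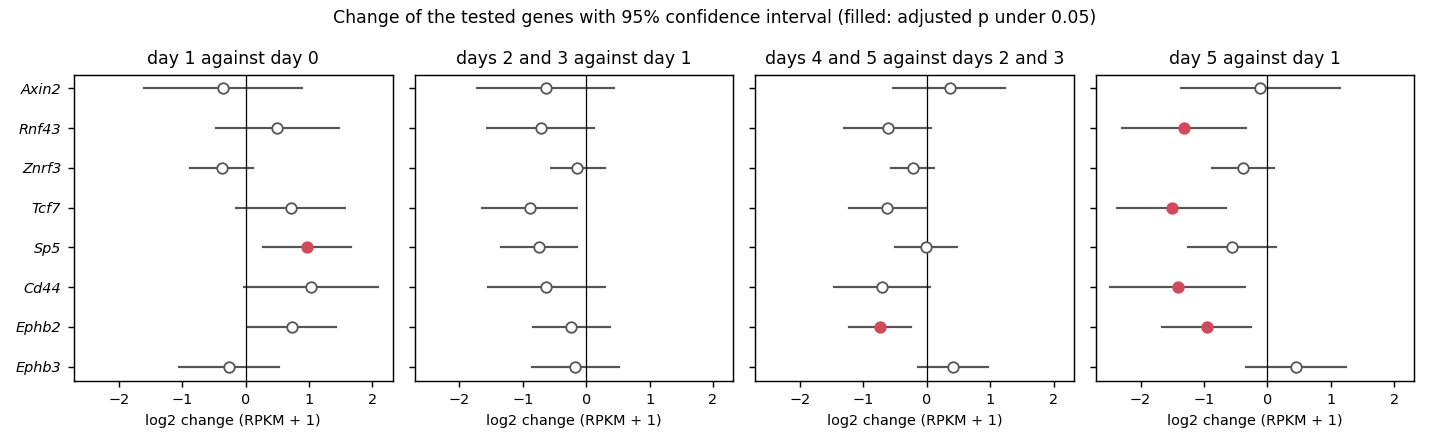
Change of the 8 tested genes on the log2(RPKM + 1) scale (horizontal axis) in 4 comparisons, with 95% confidence intervals from limma. Filled points have an adjusted p under 0.05: Sp5 in the first panel, Ephb2 in the third, and Rnf43, Tcf7, Cd44 and Ephb2 in the fourth.

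Day 5 against day 1 sets the end of culture, with neither agent, against the end of the CHIR99021 day. Here 4 of the 8 genes fell and none rose, against 27.8% of all genes in either direction. Tcf7 went from 7.06 ± 0.593 to 1.83 ± 0.227 RPKM (SD, n = 3 each), a log2 change of -1.51 ± 0.40 (limma adjusted p = 0.0154). Rnf43 went from 20.0 ± 3.49 to 7.46 ± 1.56 RPKM (-1.31 ± 0.46, adjusted p = 0.0447). Cd44 went from 16.3 ± 4.95 to 5.35 ± 1.03 RPKM (-1.41 ± 0.50, adjusted p = 0.0469), and Ephb2 from 16.3 ± 4.28 to 7.80 ± 1.53 RPKM (-0.96 ± 0.33, adjusted p = 0.0416). In all 4 genes every day 5 library was below every day 1 library. This adds no support, as the 4 were picked by the test on the same values. The share of all genes separated in this way was not computed. For Axin2 no change was detectable. It went from 21.4 ± 4.45 to 19.6 ± 3.11 RPKM (-0.11, 95% interval -1.36 to 1.14, adjusted p = 0.895). Ephb3 had a positive estimate of 0.45 ± 0.37 (adjusted p = 0.356), Sp5 was at -0.56 ± 0.32 and Znrf3 at -0.38 ± 0.23.

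The call of Tcf7 was lost without day 5 replicate 1 (adjusted p = 0.0522) and held without each of the other 17 libraries. The calls of Rnf43, Cd44 and Ephb2 were lost without any of 9, 10 and 7 libraries, with adjusted p up to 0.133, 0.136 and 0.143. Among the DNase-treated libraries, with 2 a day, none of the 4 passed, and the estimates were -1.50 for Tcf7 (adjusted p = 0.0558), -1.19 for Rnf43 (0.0621), -1.18 for Cd44 (0.16) and -0.65 for Ephb2 (0.136). The untreated libraries number 1 a day and allow no test. With the replicate number as a block, Cd44 kept its estimate of -1.41 and had an adjusted p of 0.0533. In the same comparison proliferation markers fell (6 of 8, median -1.10), 7 of 7 Paneth markers rose (median 3.72) and 4 of 7 enterocyte markers rose (median 2.60), and their part in the falls was not tested.

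At day 5 against day 1, 10 of the 64 genes of the other lists passed (15.6%, beside 27.8% of all genes). None of the 16 genes listed with beta-catenin and its destruction complex was among them. The Frizzleds Fzd5 (0.88) and Fzd2 (0.49) rose and Ryk fell (-0.59), out of 12 receptors. Tle3 rose (0.91), Sfrp5 rose (1.35) and Mmp7 rose (2.76, adjusted p = 0.00409). Wnt3a fell by 1.60. Efna1, an ephrin-A of differentiating cells, rose by 2.66 (adjusted p = 0.000462), Epha1 rose by 1.19 and Epha2 fell by 2.54.

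Day 5 against day 0 compares the end of culture with its start. Znrf3 fell and was the only 1 of the 8 genes to pass, against 24.4% of all genes. It went from 3.22 ± 0.571 to 1.48 ± 0.342 RPKM (SD, n = 3 each), a log2 change of -0.77 ± 0.23 (limma adjusted p = 0.0273). The call was lost without day 0 replicate 2 or 3 or day 5 replicate 1 or 2 (adjusted p up to 0.117) and among the DNase-treated libraries (-0.77, adjusted p = 0.0741). Estimates for the others lay between -0.81 (Rnf43 and Tcf7) and 0.41 (Sp5), with Axin2 at -0.47 ± 0.59. In this comparison 7 of 7 enterocyte markers (median 3.83) and 6 of 7 Paneth markers (median 4.26) rose and 4 of 8 proliferation markers fell (median -0.80), and their part in the fall of Znrf3 was not tested. Of the 64 genes of the other lists 14 passed (21.9%, beside 24.4% of all genes). Of the 16 genes listed with beta-catenin and its destruction complex 4 fell: the Dishevelled genes Dvl2 (-0.77) and Dvl3 (-0.66), with Amer1 (-0.55) and Gsk3b (-0.43). Fzd1 (-1.26), Ror2 (-0.83), Wls (-1.02) and Bcl9 (-0.94) fell too, whereas Mmp7 (3.98), Epha1 (1.55), Efnb2 (1.40), Efna1 (1.09), Sfrp5 (1.06) and Aes (0.50) rose. Without day 5 replicate 1 the change of Dvl3 was -0.43 (adjusted p = 0.159), and without day 0 replicate 1 that of Efna1 was 0.72 (adjusted p = 0.166). The same day 0 libraries serve here and for day 1 against day 0, and those of days 1 and 5 are shared in the same way.

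The 8 tested genes did not all keep constant ratios to each other. Since they were measured in the same libraries, the ratio of a pair within a library does not depend on its depth or scaling. All 28 pairs of the 8 tested genes were compared between days 4 and 5 and days 2 and 3, with 6 libraries each, by a two-sided exact permutation test of the mean log2 ratio. After adjustment over the 28 pairs 10 had an adjusted p under 0.05 (12 before adjustment), and of these 9 held Axin2 or Ephb3. Pairs of other genes were not compared, so whether this count is unusual was not tested. Of all tested genes 16% passed the limma test between the same days. That is a share of single genes by another test and adjustment, and no background for the count of pairs. The ratio of Axin2 to Rnf43, Tcf7, Cd44 and Ephb2 was higher at days 4 and 5, and so was that of Ephb3 to the same 4 genes and to Znrf3. The remaining pair was Znrf3 to Ephb2 (difference 0.46). The ratio of Axin2 to Ephb3 differed by -0.17 (exact p = 0.522). The pairs share genes and libraries and so are not independent, and the genes were picked with results of these data known. Each ratio test, here and below, treated the 6 libraries of a side as independent. By the titles they come from successive days of the same mice, which stand on both sides. These p-values may therefore understate the spread between animals.

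The pair of Eph receptors shows the pattern. The log2 ratio of Ephb3 to Ephb2 was -1.01, -1.07 and -1.45 in the replicates of day 0 and -2.86, -1.87 and -2.19 at day 1. It was -2.45, -3.50 and -1.88 at day 2 and -2.12, -2.21 and -1.83 at day 3. It was -1.42, -0.97 and -1.17 at day 4 and -0.62, -0.65 and -0.77 at day 5. All libraries of days 1, 2 and 3 thus lay below all libraries of days 0, 4 and 5. The mean rose from -2.33 ± 0.61 to -0.93 ± 0.32 (SD, n = 6 each), a difference of 1.40 or 2.63-fold (exact permutation p = 0.00216, the smallest that this design allows, adjusted p = 0.0101). Among the DNase-treated libraries the difference was 1.46 (n = 4 each, exact p = 0.0286). Day 5 against day 1 differed by 1.63, with 3 libraries each, where an exact test cannot go below 0.1.

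The ratio of Axin2 to its fellow inhibitor Rnf43 behaved alike. It was 1.41, 0.84 and 0.80 on the log2 scale at day 0 and 0.32, 0.03 and -0.07 at day 1. It was 0.70, -1.32 and 0.55 at day 2 and 0.72, -0.40 and 0.68 at day 3. At day 4 it was 1.15, 1.01 and 1.10 and at day 5 it was 1.52, 1.32 and 1.37. Axin2 and Rnf43 were thus near a ratio of equal RPKM at day 1, and Axin2 was the higher of them in every library of days 4 and 5. The mean went from 0.16 ± 0.84 to 1.25 ± 0.19 (SD, n = 6 each), a difference of 1.09 (exact permutation p = 0.00216, adjusted p = 0.0101). By contrast the ratio of the ligase pair Rnf43 to Znrf3 went from 2.61 ± 0.29 to 2.29 ± 0.13, a difference of -0.32 (exact permutation p = 0.0368, adjusted p = 0.0859). Beside these ratios, summed Paneth markers went from 57.5 to 665 RPKM at days 2 and 3 to 1180 to 3630 RPKM at days 4 and 5. Of 5 tested stem cell markers 1 passed the test between these days, Olfm4, from between 1.77 and 71.3 RPKM to between 178 and 577 RPKM. Lgr5 did not pass, but its ranges did not overlap either, with 0.11 to 1.04 RPKM and then 1.16 to 5.85 RPKM. The ranges of Ascl2, Smoc2 and Slc12a2 overlapped. The sum of the stem cell list without Olfm4 overlapped, with 45.4 to 166 RPKM and 62.8 to 150 RPKM. Enterocyte sums ran from 2030 to 8480 and from 2740 to 19700 RPKM and overlapped. The part of these cell types in the ratios was not tested.

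**Figure D3:**
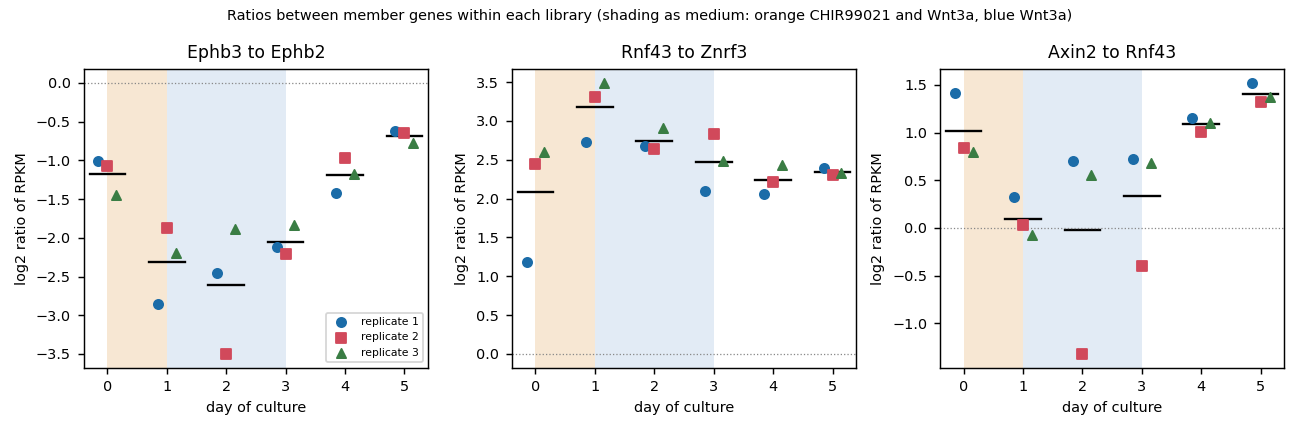
The log2 ratio of RPKM between 2 genes within each library (vertical axes) by day of culture, for Ephb3 to Ephb2, Rnf43 to Znrf3 and Axin2 to Rnf43. Symbols are replicates, bars are means and the dotted line is a ratio of 1, and in the first panel the libraries of days 4 and 5 lie between -1.42 and -0.62 and those of days 2 and 3 between -3.50 and -1.83.

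Correlations were also taken across the 18 libraries. Pearson's r of log2(RPKM + 1), given as a description over libraries that share days, was 0.932 for Rnf43 with Tcf7, 0.88 for Rnf43 with Ephb2 and 0.822 for Axin2 with Ephb3. It was 0.383 for Axin2 with Ephb2 and 0.223 for Ephb2 with Ephb3. For Axin2 it was 0.626 with Rnf43 and 0.598 with Tcf7, whose ratios to Axin2 differed between the days above, and 0.737 with Znrf3, whose ratio had an adjusted p of 0.0661. The mean r with the other 7 genes was lowest for Ephb3 (0.389) and Sp5 (0.397) and highest for Rnf43 (0.695). Outside the 10 genes, those most like Axin2 among the tested genes with a full name were Efna4 (0.865), Foxa2 (0.854), Mex3d (0.847), Lfng (0.845) and Sox4 (0.838).

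Single libraries carried much of the spread within a day. In day 2 replicate 2 all 8 tested genes had the lowest value of their day. In day 4 replicate 3 all 8 had the highest. The share of all tested genes that were lowest or highest in these libraries was not computed, here or for the counts that follow. Over all genes, those at 1 RPKM or more numbered 10335, 10254 and 10524 in the replicates of day 2. They numbered 9953, 10297 and 10552 in those of day 4. Replicate 1 was the lowest of its day for 7 of the 8 at days 0, 3, 4 and 5, but for 2 at day 1 and 0 at day 2. On all 6 days the library that was lowest for most of the 8 genes was also the one with the highest summed enterocyte markers. These sums were 2050, 8480 and 2030 RPKM in the replicates of day 2, 7710, 2070 and 3850 RPKM in those of day 3 and 19700, 10000 and 2740 RPKM in those of day 4. Summed proliferation markers were 444, 261 and 438 RPKM at day 2 and 132, 222 and 390 RPKM at day 4. At day 0 enterocyte sums were 811, 739 and 579 RPKM, at day 1 they were 2010, 2720 and 5290 RPKM, where replicate 3 was lowest for 6 of the 8, and at day 5 they were 16200, 13000 and 15100 RPKM. Fabp1 was the largest term of each enterocyte sum, and single markers did not always follow the sum. All were highest in the same library as the sum at days 1, 2 and 4. In another library were Alpi and Fabp1 at day 0, Krt20 at day 3, and Alpi, Krt20, Sis and Lct at day 5. Whether the makeup of the cells or the DNase step accounts for the low libraries was not tested.

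**Figure D4:**
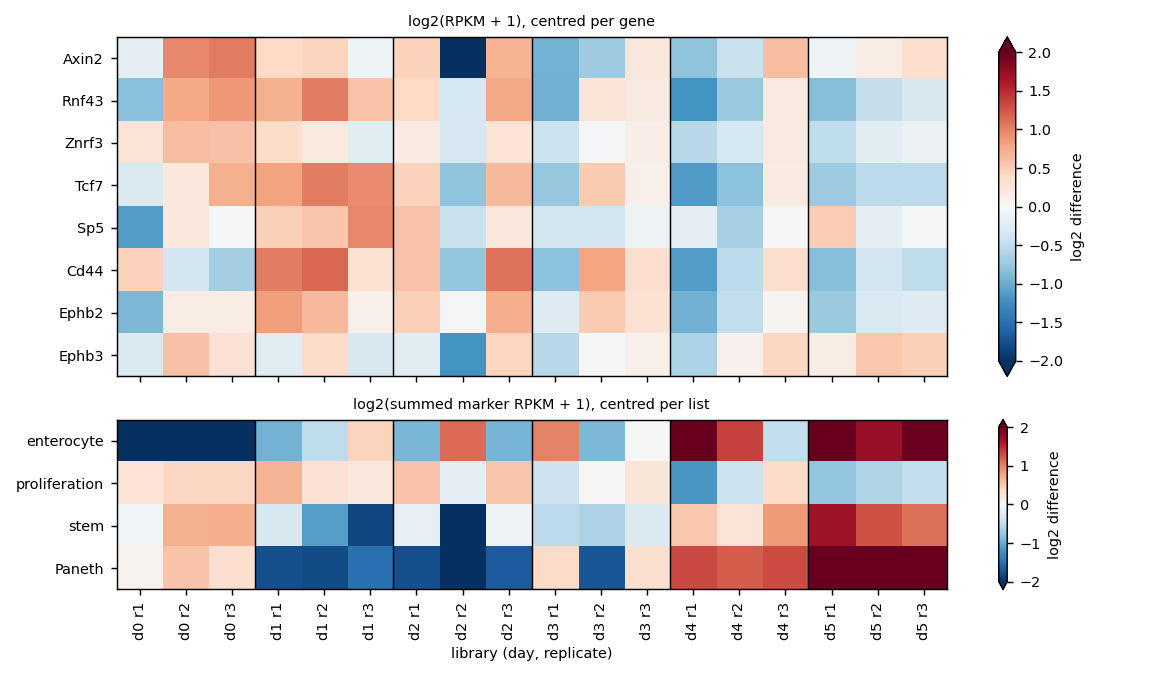
Top, log2(RPKM + 1) of the 8 tested genes in the 18 libraries (columns, by day and replicate), each gene centred on its mean. Below, summed markers of 4 cell classes on the same scale, with colours capped at 2 log2 units. The column of day 2 replicate 2 is blue or near white in all 8 genes and red for enterocyte markers (8480 RPKM).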

How the data were processed

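RNA-seq was analysed from 18 organoid libraries, 3 at each of 6 days. The authors deposited RPKM per gene, a unit already scaled for gene length and library size. Per the submitters' processing notes the tools were bcl2fastq 2.17, STAR 2.5.2b and edgeR 3.20.5 with build mm10. Their roles, the gene annotation, the use of strand and the handling of reads that match several genes are not stated in the labels and files read here.

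From these values log2(RPKM + 1) was fitted with limma 3.58.1 (R 4.3.3, empirical Bayes with trend) in 1 model with a coefficient per day. A gene was tested if 3 or more libraries had 1 RPKM or more (11111 of 24116). P-values were two-sided and adjusted by Benjamini-Hochberg over all tested genes, and a call was an adjusted p under 0.05. Folds are on the log2(value + 1) scale, which understates changes of low genes such as Sp5. The test was run on simulated data with known changes and with noise independent for each gene and library. Not all changes of 1 log2 unit were recovered there. Deviations shared by the genes of a library were not part of the simulation. Implied reads were taken from the value of 1 read, within 0.001 reads of a whole number for the 10 genes. Ratios of pairs used RPKM with no pseudocount and exact permutation tests, added after the data had been seen.

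The genes, the pathway lists and the comparisons were chosen with earlier results of these data known. Genes named from each list were up to 4 called ones with the largest change per comparison, together with the paralogs of the 10 genes. Same-numbered libraries come from the same mouse at most days. Their deviations from the day means had median correlations of 0.17, 0.09 and 0.24 for replicates 1, 2 and 3, with 10, 7 and 10 of 15 pairs over 0.1. The replicate block was therefore an alternative. Promoter windows came from RefSeq (GRCm38.p6). Alternatives were another pseudocount, other filters and scalings, the mouse as a factor, array weights, DNase-treated libraries only, only the days compared, and left-out libraries.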

Additional observations from a re-analysis of the deposited data

Results flagged for a closer look

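In day 2 replicate 2 the log2 ratio of Ephb3 to Ephb2 was -3.50, far below the other 5 libraries of days 2 and 3, which lay between -2.45 and -1.83. Its gap to the nearest library was 0.627 of the range of the group, just past the limit for 6 values. Ephb3 was at 0.930 RPKM in that library, or 264 reads, and Ephb2 at 10.5 RPKM. By chance this limit flags about 1 in 20 groups. As 6 groups were checked, a flag in at least 1 of them is more likely than that. Without this library the difference in the ratio between days 4 and 5 and days 2 and 3 was 1.16 (exact permutation p = 0.00433), beside 1.40 with it.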

How the results depend on the processing

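None of the 7 calls of single genes turned its direction under the alternatives run. These calls were kept in 71 of 126 settings that left out 1 library and in 55 of 75 others. Counts of the 8 tested genes that passed moved as follows. For day 2 against day 1, and for days 2 and 3 against day 1, the count was 0 in every setting run.

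For any day (0 genes), the count was 1 after quantile normalization, 1 with the replicate block, 3 with the mouse as a factor, 8 with array weights and 4 without 3 libraries together (day 0 replicate 1, day 3 replicate 2 and day 4 replicate 3), and 0 to 3 without single libraries. For day 1 against day 0 (1 gene), it was 0 with a pseudocount of 0.1, with no filter, with a filter at 5 RPKM, among DNase-treated libraries, with only the days compared and without the 3 libraries, 3 with array weights, and 0 to 1 without single libraries. With the mouse as a factor it stayed at 1 but was Ephb2 in place of Sp5. For day 4 against day 3 (0 genes), it was 7 with array weights. For days 4 and 5 against days 2 and 3 (1 gene), it was 0 with no filter, after quantile normalization, among DNase-treated libraries and with only the days compared, 2 without the 3 libraries, 3 with the mouse as a factor, 6 with array weights, and 0 to 3 without single libraries. For day 5 against day 1 (4 genes), it was 1 with no filter, 3 after quantile normalization (without Rnf43), 3 with the replicate block and 5 with array weights. It was 0 among DNase-treated libraries, and 0 to 4 without single libraries. For day 5 against day 0 (1 gene), it was 0 with a filter at 5 RPKM and among DNase-treated libraries, 2 with only the days compared, 3 without the 3 libraries, 5 with array weights, and 0 to 2 without single libraries.

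The array weights did not converge and gave day 4 replicate 2 a weight of 989.82, so the counts that involve day 4 rest largely on 1 library. The estimates for day 1 against day 0 and for day 5 against day 0 do not use day 4. They share day 0, where replicates 1, 2 and 3 had weights of 0.27, 2.47 and 1.32. The filter at 5 RPKM leaves fewer genes to test, and the DNase-treated set holds 12 libraries. The causes of the other moves were not tested. The replicate block changed 2 calls, Tcf7 for any day and Cd44 for day 5 against day 1, and no other call of the 8 genes. The ratio of Ephb3 to Ephb2 differed by 1.16 to 1.5 and that of Axin2 to Rnf43 by 0.80 to 1.2 without single libraries. The lowest read counts, 6 for Sp5 and 2 for Nkd1, limit what these genes can show.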
